A study of Rattus norvegicus with 14 samples.

Results

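The urea cycle and its nitrogen supply are described here by 8 genes, Nags, Cps1, Otc, Ass1, Asl, Arg1, Oat and Gls2, out of 14497 genes measured. Each was read from the probe set on the array that carries its symbol and no other, and each of the 8 had exactly 1 such probe set. Transcript levels were measured on Affymetrix Rat Gene ST 1.0 arrays, which probe a transcript along its whole length, in liver tissue cut by laser capture from fixed sections of 12 male F344 rats, 3 per group. All values are array intensities on a linear scale unless a log2 difference is named, and a group mean is the geometric mean of 3 animals.

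Rapamycin foci came from rats injected with diethylnitrosamine (200 mg/kg), a liver carcinogen, on day 1. They received a 2.5 mg pellet of 2-acetylaminofluorene (AAF), which blocks hepatocyte division and releases over 14 days, on day 14. Partial hepatectomy was done on day 21, when a pellet releasing rapamycin (2.5 mg/kg per day) for 21 days was also placed. Rapamycin is an inhibitor of the growth kinase mTOR. Placebo foci came from rats treated alike but with a placebo pellet. In both groups, lesions positive for the placental glutathione S-transferase were captured on day 70, so the pellet's release time had ended well before. AAF/PH liver, labelled as oval cells after the progenitor cells that multiply under this treatment, came from rats with the same AAF pellet on day 1, partial hepatectomy on day 7 and harvest on day 14, without diethylnitrosamine. Normal liver came from unmanipulated adults. The labels used here give no ages. The focus groups thus share carcinogen, AAF and surgery, AAF/PH liver shares AAF and surgery, and normal liver received none of them.

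The urea cycle turns toxic ammonia into urea, and only the liver runs it in full. Nags makes N-acetylglutamate, which switches on Cps1, the mitochondrial enzyme that joins ammonia and bicarbonate to carbamoyl phosphate. Otc, also mitochondrial, adds this to ornithine and gives citrulline. In the cytosol Ass1 joins citrulline to aspartate, Asl splits the product to arginine and fumarate, and Arg1 splits arginine to urea and ornithine. Gls2, the liver glutaminase, supplies ammonia beside Cps1 in periportal hepatocytes, those near the portal vein. Oat turns ornithine into glutamate by way of a semialdehyde and is confined mainly to the pericentral hepatocytes around the central vein, where glutamine is made.

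The start regions of Otc, Cps1, Asl and Oat are shown because the results below turn on them: Otc was lowest and Asl highest in AAF/PH liver, Oat was lower in all treated groups, and Cps1 is the gene against which Otc and Oat are set within each animal. They are RefSeq windows of the rat assembly GRCr8, from 250 bases before an annotated start site to 50 after it, written 5′ to 3′ along the gene. For Otc, Cps1 and Oat that site is the gene's first base. The Asl gene begins at 32295779, so the site used for its window lies inside the gene. Capitals mark matches to a motif for C/EBP factors (TTNNGNAA) or for HNF4 (CAAAGNNCA), searched on both strands together with TATAAA and the HNF1 half-site GTTAAT. The motifs did not overlap in these windows. Otc lies at chrX:15202424-15202723 on the minus strand, Cps1 at chr9:76063613-76063912 on the plus strand, Asl at chr12:32295658-32295957 on the plus strand and Oat at chr1:196797705-196798004 on the minus strand.
Otc: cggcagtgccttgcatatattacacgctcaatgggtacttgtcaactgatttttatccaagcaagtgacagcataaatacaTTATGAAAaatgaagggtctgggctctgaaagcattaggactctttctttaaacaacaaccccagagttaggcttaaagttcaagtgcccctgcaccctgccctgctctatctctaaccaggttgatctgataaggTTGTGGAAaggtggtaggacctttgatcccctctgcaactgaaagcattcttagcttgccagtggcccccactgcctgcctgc
Cps1: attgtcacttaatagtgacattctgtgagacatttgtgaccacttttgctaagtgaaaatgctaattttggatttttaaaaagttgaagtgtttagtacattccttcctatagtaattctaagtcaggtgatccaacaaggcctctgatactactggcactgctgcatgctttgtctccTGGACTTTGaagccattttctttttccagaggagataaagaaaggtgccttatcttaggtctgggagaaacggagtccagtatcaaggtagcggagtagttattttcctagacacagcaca
Asl: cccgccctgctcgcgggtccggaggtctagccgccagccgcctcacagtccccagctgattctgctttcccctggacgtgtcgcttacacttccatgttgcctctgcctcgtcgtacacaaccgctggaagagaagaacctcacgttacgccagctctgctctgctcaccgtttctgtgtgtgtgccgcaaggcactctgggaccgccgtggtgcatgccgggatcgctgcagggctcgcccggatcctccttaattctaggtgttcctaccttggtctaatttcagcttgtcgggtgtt
Oat: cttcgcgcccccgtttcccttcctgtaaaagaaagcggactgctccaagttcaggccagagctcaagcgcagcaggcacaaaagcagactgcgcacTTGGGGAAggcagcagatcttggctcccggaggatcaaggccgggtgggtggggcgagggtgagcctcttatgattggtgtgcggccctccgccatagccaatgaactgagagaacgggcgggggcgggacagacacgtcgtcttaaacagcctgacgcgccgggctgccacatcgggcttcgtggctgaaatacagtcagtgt
Counted with the first base of the gene at 0, the Otc window held C/EBP letters at -169 to -162 and at -33 to -26, and the Oat window at -154 to -147. The Cps1 window held HNF4 letters on the minus strand at -71 to -63, read as TGGACTTTG on the strand shown. No match was found in the Asl window, which covers only part of the 250 bases before the gene's first base. Of 33365 rat windows of this length, 41.3% held the C/EBP letters, 6.10% the HNF4 letters, 14.2% TATAAA and 7.46% the HNF1 half-site. These matches are letters only, and factor binding was not measured. Windows were given for 7 of the 8 genes, Arg1 being the other.

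Before any comparison, rapamycin animal 3 stood apart. It was run on 3 arrays, a pair from the same RNA and the last from a second laser capture, and all were averaged into 1 value on the log2 scale. Over genes the 3 arrays correlated at 0.97 in each pair. Their log2 intensities had an interquartile range of 1.57 to 1.71, against 1.98 to 2.80 on the other 11 arrays. The median intensity ran between 19.84 and 25.37 over all 14 arrays. Results that rest on this animal are given with and without it, and its part in them was not tested.

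Nags and Cps1 form the entry of the cycle. Nags (probe set 10738522) had intensities of 81.5, 80.9 and 53.0 in rapamycin foci, 50.9, 59.1 and 67.2 in placebo foci, 69.8, 64.3 and 61.1 in AAF/PH liver and 203, 147 and 195 in normal liver. All 9 treated animals lay below all 3 normal livers. The log2 difference from normal liver was -1.35 ± 0.21 in rapamycin foci (standard error, limma adjusted p = 0.00192), -1.61 ± 0.21 in placebo foci (adjusted p = 0.000207) and -1.47 ± 0.21 in AAF/PH liver (adjusted p = 0.000177). No pair of the treated groups differed past the threshold of 0.05 for Nags. Cps1 (probe set 10924088) had 1197, 1642 and 589 in rapamycin foci, 1003, 859.9 and 1192 in placebo foci, 2308, 2006 and 2164 in AAF/PH liver and 2382, 1619 and 2182 in normal liver. AAF/PH animals fell inside the range of normal liver for Cps1, whereas placebo foci lay wholly below it. The placebo difference was -1.01 ± 0.30 on the log2 scale (adjusted p = 0.049), just inside the threshold, and it was called in 10 of 25 alternative analyses. It was lost on leaving out normal liver 1 or 3, any AAF/PH animal, any placebo animal or rapamycin animal 1 (adjusted p 0.0572 to 0.217). Rapamycin foci had a Cps1 difference of -0.95 ± 0.30 that missed the threshold (adjusted p = 0.0682) but passed it without rapamycin animal 2 (adjusted p = 0.0121). Without rapamycin animal 3 it shrank to -0.54 (adjusted p = 0.156). Against AAF/PH liver, Cps1 differed by -1.04 ± 0.30 in rapamycin foci (adjusted p = 0.07) and -1.09 ± 0.30 in placebo foci (adjusted p = 0.0521). Without rapamycin animal 2 these passed (adjusted p = 0.0136 and 0.0176), the placebo one also without rapamycin animal 3 (0.000455). In AAF/PH liver the Cps1 difference was 0.08 ± 0.30 (95% interval -0.55 to 0.72, adjusted p = 0.848), and its sign turned when each array was centred on its median (-0.11).

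Otc (probe set 10936865), which makes citrulline, set AAF/PH liver apart. Its intensities were 346, 378 and 91.5 in rapamycin foci, 232, 216 and 326 in placebo foci, 18.9, 21.2 and 11.9 in AAF/PH liver and 616, 445 and 465 in normal liver. Every AAF/PH value was below the array's median over all probe sets (22.75 to 23.75 on those 3 arrays). No detection call was used, so Otc is not shown to be above background there, and differences against these values may understate the true ones. As measured, Otc was 29.9 times lower in AAF/PH liver than in normal liver, at a log2 difference of -4.90 ± 0.42 (adjusted p = 2.71e-06). Against AAF/PH liver, with the same limit, measured Otc was higher by 3.76 ± 0.42 in rapamycin foci (adjusted p = 0.000107) and by 3.91 ± 0.42 in placebo foci (adjusted p = 6.84e-05). These 3 calls held in all 25 alternatives. The mean of rapamycin foci was 45.5% and that of placebo foci 50.5% of the mean of normal liver, and neither difference passed (adjusted p = 0.114 and 0.195). For placebo foci it passed without rapamycin animal 3, which enters the shared estimate of spread (adjusted p = 0.00291), and for rapamycin foci without rapamycin animal 2 (adjusted p = 0.0335). Leaving out rapamycin animal 3 brought the rapamycin difference in log2 from -1.14 to -0.48 (adjusted p = 0.319).

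Ass1, Asl and Arg1 carry the cytosolic steps. Ass1 (probe set 10835355) had 1698, 2122 and 756 in rapamycin foci, 1243, 939.8 and 1512 in placebo foci, 2118, 1693 and 2069.8 in AAF/PH liver and 3329.6, 2458 and 2552 in normal liver. No treated animal reached normal liver, yet only the placebo difference passed, at -1.19 ± 0.31 (adjusted p = 0.0269). It held in 17 of 25 alternatives and was lost when normal liver 1 (adjusted p = 0.143) or 3 (0.0762) or placebo animal 1 (0.0871) or 2 (0.135) was left out. The Ass1 difference was -0.98 ± 0.31 in rapamycin foci (adjusted p = 0.073, and 0.0176 without rapamycin animal 2). Without rapamycin animal 3 this value was -0.54 (adjusted p = 0.172). In AAF/PH liver the Ass1 difference was -0.50 ± 0.31 (adjusted p = 0.262, and 0.0496 without rapamycin animal 3). Against AAF/PH liver, placebo foci differed by -0.69 ± 0.31 (adjusted p = 0.303, and 0.0224 without rapamycin animal 3).

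Asl (probe set 10757962) was the member that was higher in AAF/PH liver. It had 170.1, 202 and 87.2 in rapamycin foci, 159.5, 138 and 156 in placebo foci, 553, 523 and 523 in AAF/PH liver and 353, 214 and 335 in normal liver. The ranges ran in the order foci, normal liver, AAF/PH liver, with no overlap between these 3 levels. Against AAF/PH liver, Asl was lower by a log2 difference of -1.89 ± 0.27 in rapamycin foci (adjusted p = 0.00091) and -1.82 ± 0.27 in placebo foci (adjusted p = 0.0011), calls that held in all 25 alternatives. Against normal liver, Asl was 0.86 ± 0.27 higher in AAF/PH liver (adjusted p = 0.0387), a call kept in 13 of 25 alternatives and lost on leaving out any animal of either group or placebo animal 1 or 2 (adjusted p 0.0514 to 0.134). With arrays centred on their medians this value was 0.67 (adjusted p = 0.176). Foci differed from normal liver by -1.03 ± 0.27 with rapamycin (adjusted p = 0.037) and -0.96 ± 0.27 with placebo (adjusted p = 0.0414), each kept in 12 of 25. The rapamycin call was lost on leaving out normal liver 1 or 3, any AAF/PH animal, placebo animal 1 or 2 or rapamycin animal 3 (adjusted p 0.0536 to 0.192). The placebo call was lost on leaving out normal liver 1 or 3, any AAF/PH animal or any placebo animal (0.0596 to 0.206).

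Arg1 (probe set 10702214), the enzyme that releases urea, passed in no comparison in the main analysis. Its intensities were 853, 969.7 and 286 in rapamycin foci, 697, 604 and 644 in placebo foci, 1011, 1144 and 863 in AAF/PH liver and 1040.1, 763 and 947 in normal liver. Placebo foci lay below every normal liver by a narrow margin, at -0.49 ± 0.34 (adjusted p = 0.467, but 0.0497 without rapamycin animal 3 and 0.00754 with array weights). Against AAF/PH liver, placebo foci differed by -0.63 ± 0.34 (adjusted p = 0.427, but 0.0172 without rapamycin animal 3, 0.0476 with quantile normalization, 0.037 with only these groups in the fit and 0.0251 with array weights). In AAF/PH liver the difference from normal liver was 0.14 ± 0.34 (95% interval -0.59 to 0.87, and -0.06 with arrays centred on their medians).

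Oat and Gls2 stand beside the cycle, and both were lower in all 3 treated groups. Oat (probe set 10726280) had 73.8, 86.1 and 65.2 in rapamycin foci, 34.0, 57.4 and 47.2 in placebo foci, 150.2, 146 and 67.0 in AAF/PH liver and 379, 358 and 343 in normal liver. Normal livers were tightly grouped and far above every treated animal. Oat was 4.82 times lower in rapamycin foci (log2 difference -2.27 ± 0.28, adjusted p = 0.000402), 7.96 times lower in placebo foci (-2.99 ± 0.28, adjusted p = 1.5e-05) and 3.16 times lower in AAF/PH liver (-1.66 ± 0.28, adjusted p = 0.000797). The placebo value was the 21st lowest of all genes. Placebo foci were also below AAF/PH liver for Oat, by -1.33 ± 0.28 (adjusted p = 0.0128), which was lost without AAF/PH animal 1 (0.0698) or 2 (0.0791) or placebo animal 1 (0.0808). Rapamycin foci passed against AAF/PH liver only without AAF/PH animal 3 (-0.99, adjusted p = 0.0408).

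Gls2 (probe set 10893008) had 138, 179 and 83.4 in rapamycin foci, 139.6, 113 and 125 in placebo foci, 66.8, 67.4 and 51.9 in AAF/PH liver and 453, 265 and 340.2 in normal liver. The levels again fell into 3 steps with no overlap, here with AAF/PH liver lowest. The log2 difference from normal liver was -1.43 ± 0.26 in rapamycin foci (adjusted p = 0.0067, and 0.0501 with normal liver 1 left out), -1.46 ± 0.26 in placebo foci (adjusted p = 0.00305) and -2.48 ± 0.26 in AAF/PH liver (adjusted p = 1.87e-05). Foci exceeded AAF/PH liver by 1.05 ± 0.26 with rapamycin (adjusted p = 0.037) and 1.02 ± 0.26 with placebo (adjusted p = 0.0415). Those 2 differences were kept in 10 and 11 of 25 alternatives. Both were lost on leaving out normal liver 3, any AAF/PH animal, placebo animal 1 or 2 or rapamycin animal 1, the rapamycin one also without rapamycin animal 2 and the placebo one also without placebo animal 3 (adjusted p 0.0517 to 0.182).

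**Figure D1:**
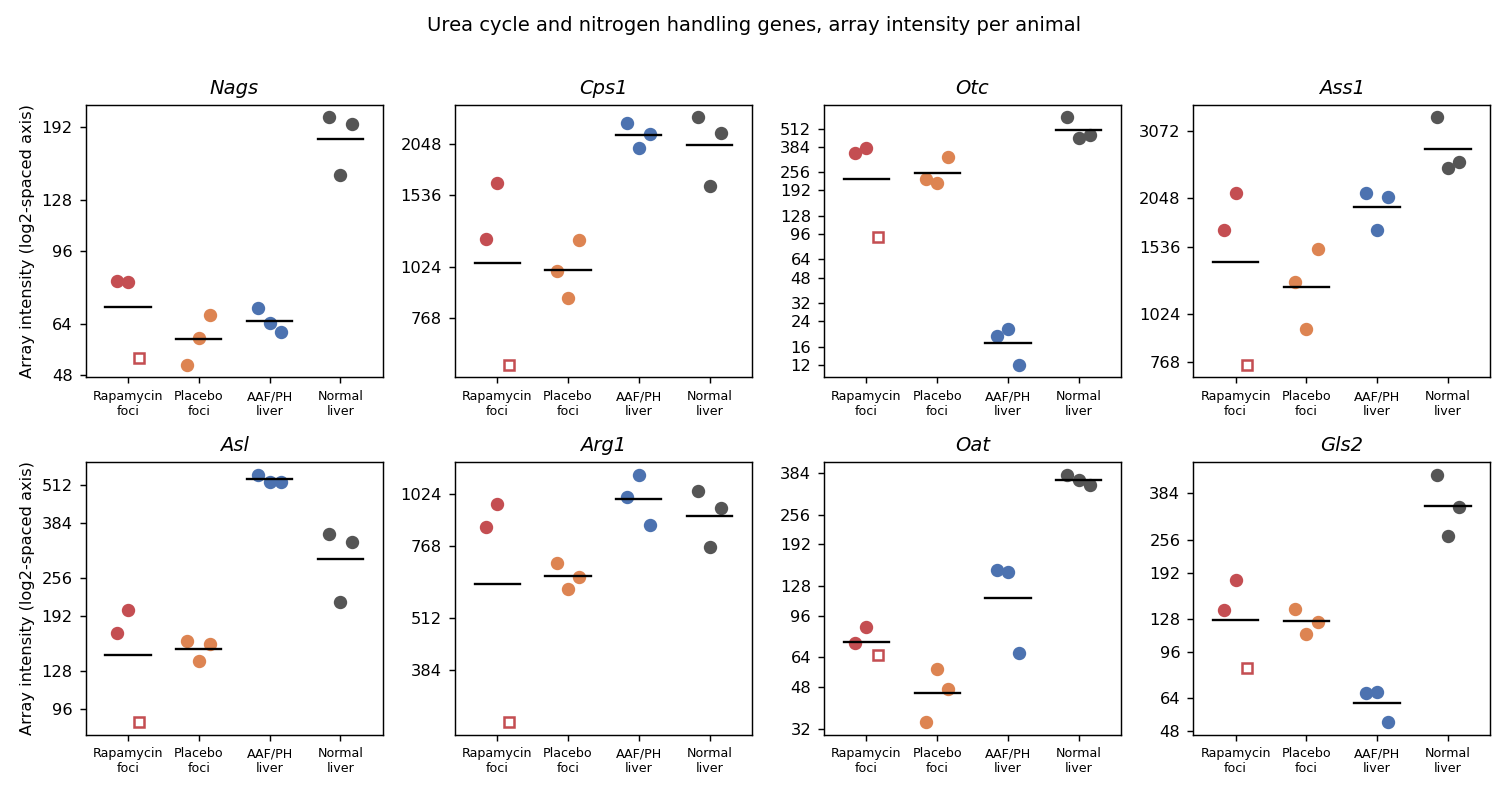
Array intensity of the 8 genes in each animal (log2-spaced axes, black lines at geometric means, 3 animals per group, open squares for rapamycin animal 3). Otc and Gls2 are lowest in AAF/PH liver, Asl is highest there, and Nags and Oat lie below normal liver in every treated animal.

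Set side by side, rapamycin foci had 4 of the 8 genes lower and 0 higher than normal liver, where limma called 6.53% of all genes, 4.93% lower and 1.6% higher. In 6 genes the rapamycin animals all lay below the normal livers, a separation that 14.6% of all genes showed in that direction, 15.1% in the other and 29.7% in either. The median log2 difference of the 8 genes was -1.08, beside 0.07 over all genes. Placebo foci had 6 lower and 0 higher, where 8.22% of all genes were called, 5.38% lower and 2.84% higher. All 8 genes were without overlap below normal liver, as were 15.7% of all genes, with 14.8% above it and 30.5% in either direction. Their median was -1.10, beside 0.04. AAF/PH liver had 4 lower and 1 higher, where 20% of all genes were called, 12.5% lower and 7.54% higher. There 5 genes lay wholly below and 1 above normal liver, with 22.2% of all genes below, 27.4% above and 49.6% in either direction, and the median was -0.98, beside 0.12. Centring each array on its median left 10.0% of calls higher in rapamycin foci and 20.0% in AAF/PH liver relative to normal liver (24.5% and 37.7% as deposited), and moved the median of all genes to -0.10 and -0.08 (0.07 and 0.12 as deposited). The 3 comparisons share the same normal livers. The rapamycin count was 2 with normal liver 1 left out, 7 with rapamycin animal 2 left out and 3 with rapamycin animal 3 left out. The placebo count was 3 on leaving out normal liver 1 or 3 or placebo animal 1 or 2, and 8 on leaving out rapamycin animal 3, where 17.0% of all genes were called.

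Against AAF/PH liver, rapamycin foci had 2 of the 8 genes higher and 1 lower, where 4.01% of all genes were called, 2.14% higher and 1.87% lower. Without overlap were 2 genes above and 2 below AAF/PH liver, beside 5.44% of all genes above, 8.12% below and 13.6% in either direction. Placebo foci had 2 higher (Otc and Gls2) and 2 lower (Asl and Oat), where 4.19% of all genes were called, 2.62% higher and 1.57% lower. There 2 genes lay wholly above and 5 below AAF/PH liver, beside 13% of all genes above, 12.8% below and 25.7% in either direction. The placebo count was 7 on leaving out rapamycin animal 3, and 2 on leaving out AAF/PH animal 1 or 2 or placebo animal 1.

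**Figure D2:**
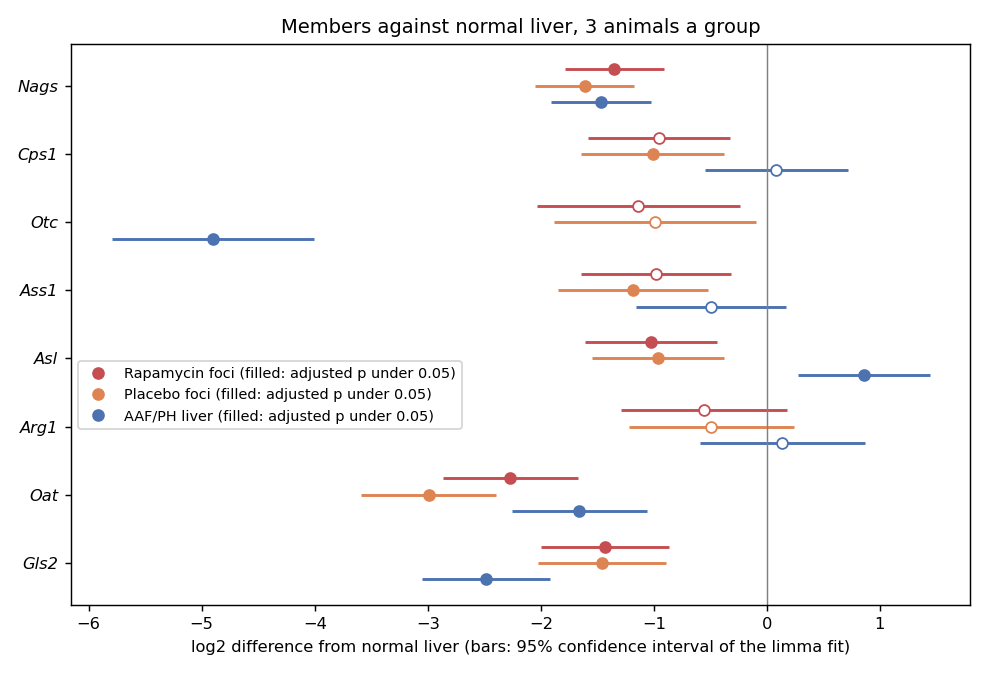
Log2 difference of each gene from normal liver (points, filled where the adjusted p is under 0.05) with 95% confidence intervals, for rapamycin foci, placebo foci and AAF/PH liver. All points of both kinds of foci lie left of 0, while in AAF/PH liver they run between -4.90 for Otc and 0.86 for Asl.

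Differences between genes were also read within animals. The gap between the log2 levels of Otc and Cps1 in each animal was compared with that of normal liver, a measure chosen after the values were seen. The gap had shifted by -0.18 in rapamycin foci and 0.02 in placebo foci, both with overlap, and by -4.98 in AAF/PH liver, with none. The gap between Oat and Cps1 had shifted by -1.32 in rapamycin foci, -1.98 in placebo foci and -1.74 in AAF/PH liver, each with no overlap with normal liver. The Gls2 and Cps1 gap had also shifted without overlap, by -0.48, -0.45 and -2.57 in that order. Nags and Cps1 gave -0.40 (with overlap), -0.60 and -1.55. For Otc and Ass1 the shifts were -0.16 (with overlap), 0.20 and -4.40. Otc and Asl gave -0.11 and -0.02, both with overlap, and -5.76 without. Otc is not shown to be above background in AAF/PH liver, so its gaps there are as measured and may understate the true ones. An exact permutation test of 3 against 3 animals (2-sided) cannot go below 0.1, which all non-overlapping gaps reached (0.15 adjusted over the 18 comparisons made). No share over other gene pairs is given here, so whether gaps without overlap are unusual cannot be judged.

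**Figure D3:**
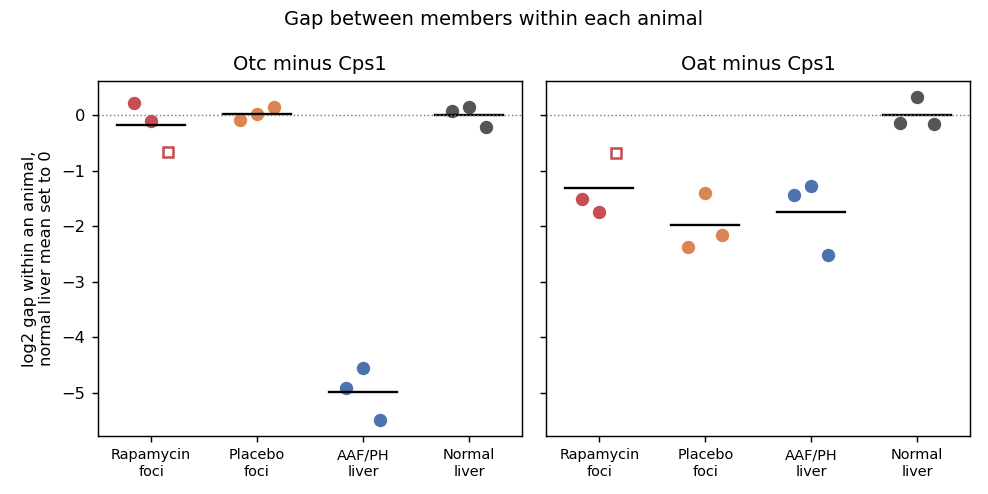
Gap between log2 levels of Otc and Cps1 (left) and of Oat and Cps1 (right) within each animal, with the mean of normal liver set to 0 (points are animals, black lines group means, open squares rapamycin animal 3). The mean Otc gap is near 0 in both kinds of foci, with rapamycin animal 3 at -0.67. It shifts by -4.98 in AAF/PH liver, where Otc is not shown to be above background. The Oat gap is below normal liver in all treated animals.

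Around the cycle, 12 carriers and suppliers were measured. Car5a, the mitochondrial carbonic anhydrase that gives Cps1 its bicarbonate, was lower in rapamycin foci (-0.98 ± 0.21, adjusted p = 0.0128), in placebo foci (-1.19 ± 0.21, adjusted p = 0.00225) and most in AAF/PH liver (-2.24 ± 0.21, adjusted p = 5.21e-06). Its intensities were 113, 115 and 83.1 in rapamycin foci, 82.5, 89.6 and 94.4 in placebo foci, 48.9, 41.0 and 39.8 in AAF/PH liver and 251, 151 and 219 in normal liver. As for Gls2, the AAF/PH animals were lowest and the normal livers highest, with no overlap. Slc25a15, the carrier that brings ornithine to Otc in mitochondria, had 238, 319 and 116 in rapamycin foci, 270.0, 232 and 232 in placebo foci, 617, 676 and 524 in AAF/PH liver and 381, 301 and 420.1 in normal liver. Like Asl it was highest in AAF/PH liver. Its difference from normal liver there, 0.73 ± 0.29, missed the threshold (adjusted p = 0.0885), while rapamycin foci (-1.55 ± 0.29, adjusted p = 0.00562) and placebo foci (-1.30 ± 0.29, adjusted p = 0.0178) were below AAF/PH liver. Slc7a2, an arginine importer, was lower than normal liver in placebo foci (-1.65 ± 0.35, adjusted p = 0.00819) and rapamycin foci (-1.31 ± 0.35, adjusted p = 0.0397, kept in 11 of 25 alternatives). Of the 12 genes, 1 was higher and 3 lower in rapamycin foci, 0 and 4 in placebo foci, and 1 and 1 in AAF/PH liver. Of all genes, 1.6%, 2.84% and 7.54% were called higher and 4.93%, 5.38% and 12.5% lower. The AAF/PH count was thus near the share of all genes. Median log2 differences of the 12 were -0.44, -0.47 and 0.34 in that order, beside 0.07, 0.04 and 0.12 over all genes. Over the 25 alternatives, the number of the 12 called ran between 0 and 6, 1 and 10, and 1 and 9. In rapamycin foci it was 0 on leaving out normal liver 1 or 3, and 2 on leaving out AAF/PH animal 1 or 3 or placebo animal 1 or 2. In placebo foci it was 1 with normal liver 1 left out, 2 with placebo animal 1 left out and 7 with rapamycin animal 3 left out. In AAF/PH liver it was 1 on leaving out normal liver 1 or 3 or AAF/PH animal 2, and 5 on leaving out rapamycin animal 3.

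**Figure D4:**
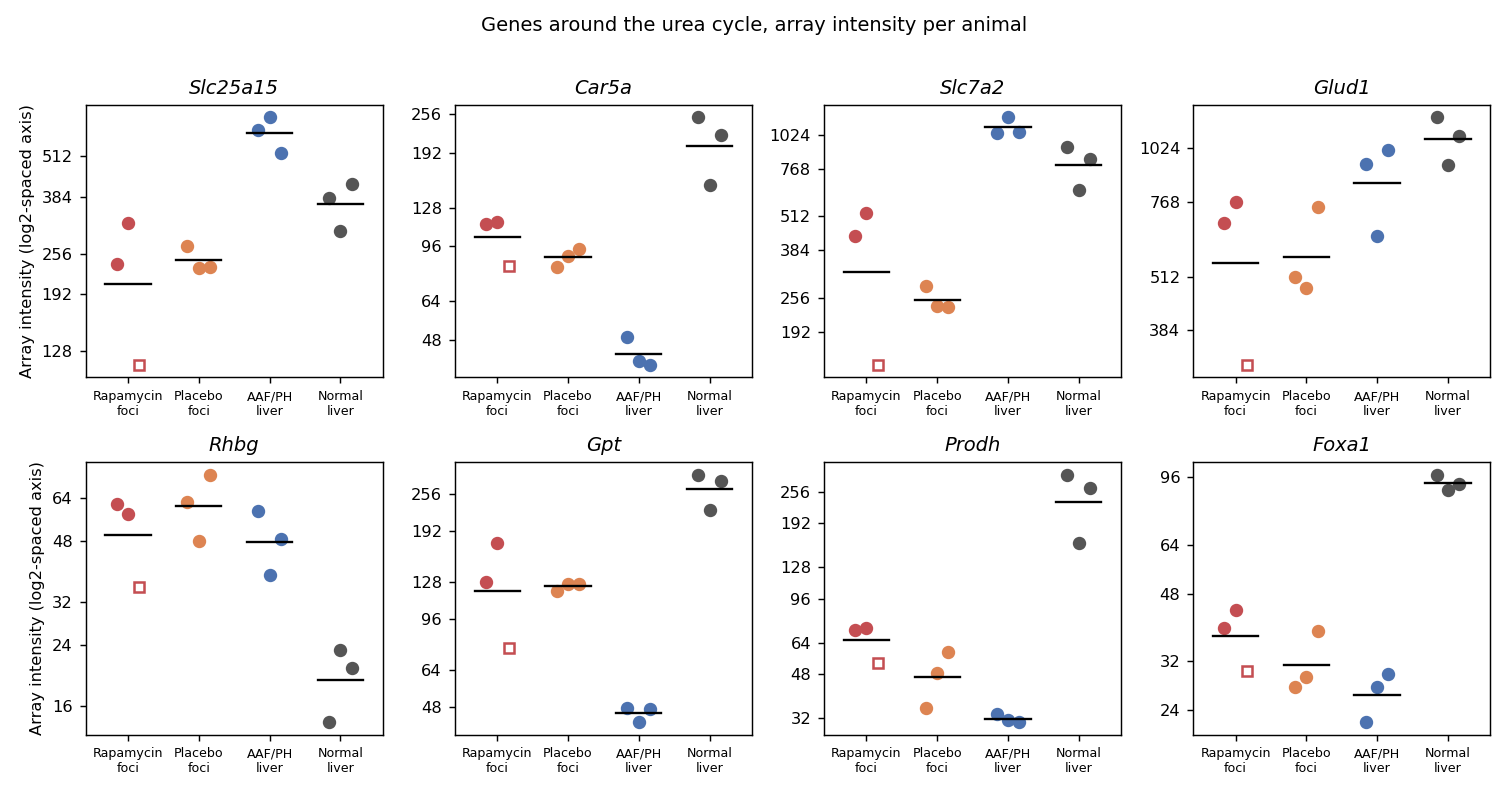
Array intensity of 8 genes around the urea cycle in each animal (log2-spaced axes, black lines at geometric means, open squares for rapamycin animal 3). Slc25a15 and Slc7a2 are highest in AAF/PH liver, Car5a and Gpt are lowest there, and Rhbg is above normal liver in all treated animals.

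Enzymes of amino acid breakdown free nitrogen for the cycle. Of 27 enzymes of amino acid breakdown, 13 were lower and 0 higher in rapamycin foci, 13 and 0 in placebo foci, and 20 and 0 in AAF/PH liver, with median log2 differences of -1.10, -1.07 and -1.32. Over all genes, 4.93%, 5.38% and 12.5% were called lower and 1.6%, 2.84% and 7.54% higher in the same order, with medians of 0.07, 0.04 and 0.12. The AAF/PH count stayed between 15 and 24 over the alternatives. On leaving out single animals, the rapamycin count became 5 (normal liver 1), 6 (normal liver 3) and 22 (rapamycin animal 2), and the placebo count 7 (normal liver 1), 8 (placebo animal 1) and 20 (rapamycin animal 3). Prodh, which like Oat feeds the semialdehyde shared by proline and ornithine, was lower by -1.84 ± 0.25 in rapamycin foci, -2.33 ± 0.25 in placebo foci and -2.88 ± 0.25 in AAF/PH liver (adjusted p = 0.00079, 4.7e-05 and 2.81e-06). Hal, the periportal enzyme that opens histidine breakdown, was lower in rapamycin foci, placebo foci and AAF/PH liver (-1.57, -1.87 and -1.07, each ± 0.26, adjusted p = 0.00321, 0.000382 and 0.00905). Among 14 genes of ammonia and glutamine handling, 2 were higher and 3 lower in rapamycin foci, 4 and 3 in placebo foci, and 3 and 4 in AAF/PH liver, with medians of -0.66, -0.55 and 0.07. The shares and medians of all genes given above apply to this list too. Gpt, the alanine aminotransferase, was lower in each, at -1.17 ± 0.24, -1.11 ± 0.24 and -2.56 ± 0.24 (adjusted p = 0.0122, 0.00971 and 6.5e-06). Rhbg, an ammonium transporter of pericentral hepatocytes, moved the other way. In normal liver it lay near the array's median over all probe sets (19.84 to 21.01 on those 3 arrays). Rhbg is thus not shown to be above background there. Its intensities were 61.3, 57.5 and 35.5 in rapamycin foci, 62.3, 48.1 and 74.6 in placebo foci, 58.6, 38.3 and 48.6 in AAF/PH liver and 14.4, 23.2 and 20.6 in normal liver, rises of 1.39 ± 0.26, 1.67 ± 0.26 and 1.33 ± 0.26 (adjusted p = 0.00699, 0.000972 and 0.00238). Glud1, the glutamate dehydrogenase that frees ammonia, passed in none of the comparisons (-0.97, -0.92 and -0.34 against normal liver). For this list the rapamycin count of 5 became 0 (normal liver 1 left out), 2 (normal liver 3) and 8 (rapamycin animal 2), and the placebo count of 7 became 3 (normal liver 1), 4 (normal liver 3) and 11 (rapamycin animal 3).

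The other routes of ornithine and arginine were split. Of 15 genes, 3 were higher and 1 lower in rapamycin foci, 2 and 2 in placebo foci, and 3 and 3 in AAF/PH liver, with medians of 0.11, -0.00 and -0.03. Of all genes, 1.6%, 2.84% and 7.54% were called higher and 4.93%, 5.38% and 12.5% lower, with medians of 0.07, 0.04 and 0.12. Pycr1, which makes proline on the route back from the semialdehyde, was higher in rapamycin foci (1.34 ± 0.21, adjusted p = 0.00252) and placebo foci (1.27 ± 0.21, adjusted p = 0.00173). Its intensities in normal liver, 17.4, 19.7 and 24.5, were near the array medians, as for Rhbg. Aldh18a1, which makes that semialdehyde from glutamate, was higher in rapamycin foci, placebo foci and AAF/PH liver (0.73, 0.70 and 0.83, adjusted p = 0.0276, 0.0254 and 0.00502), kept in 18, 18 and 25 of 25 alternatives. Agmat, an agmatinase, was lower in all 3 (-0.98, -0.99 and -1.23, adjusted p = 0.0159, 0.00992 and 0.00116). Gamt, the last enzyme of creatine synthesis, was lower in placebo foci (-1.25 ± 0.34, adjusted p = 0.0354) and AAF/PH liver (-2.81 ± 0.34, adjusted p = 5.88e-05). The number called in this list ranged over 1 to 7, 1 to 9 and 3 to 10 among the alternatives. In rapamycin foci it was 1 on leaving out normal liver 1 or 3 and 7 on leaving out rapamycin animal 2. In placebo foci it was 1 on leaving out normal liver 3 or placebo animal 1, and 2 on leaving out normal liver 1 or placebo animal 2. In AAF/PH liver it was 3 on leaving out normal liver 1 or 3 or AAF/PH animal 2.

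A list of 16 possible regulators of the urea cycle held liver transcription factors and the glucagon receptor, among others. Of the 16, 4 were lower and 0 higher in rapamycin foci, 4 and 0 in placebo foci, and 10 and 2 in AAF/PH liver. Of all genes, 4.93%, 5.38% and 12.5% were called lower and 1.6%, 2.84% and 7.54% higher. The regulators' median log2 difference was -0.54 in rapamycin foci, -0.62 in placebo foci and -1.12 in AAF/PH liver. Over all genes it was 0.07, 0.04 and 0.12. Cebpa, a C/EBP factor required for full expression of the cycle, had 189, 199 and 159 in rapamycin foci, 169, 210.1 and 169.5 in placebo foci, 119.7, 113 and 90.8 in AAF/PH liver and 314, 216 and 324 in normal liver. AAF/PH liver was the lowest group for Cebpa, and its difference from normal liver was -1.39 ± 0.20 (adjusted p = 0.000218). Foci exceeded AAF/PH liver by 0.76 ± 0.20 in both kinds (adjusted p = 0.0467 with rapamycin and 0.0442 with placebo, kept in 9 and 10 of 25 alternatives). Foxa1, a pioneer factor of liver genes, was lower in all 3 treated groups (-1.32, -1.57 and -1.82, each ± 0.19, adjusted p = 0.00156, 0.000156 and 1.84e-05). Atf5, a stress-linked leucine zipper factor, was lower in placebo foci (-1.52 ± 0.18, adjusted p = 0.000109) and AAF/PH liver (-1.69 ± 0.18, adjusted p = 1.79e-05). Between the groups of foci, Atf5 stood at 716, 744 and 699 with rapamycin and 293, 417 and 394 with placebo, without overlap, but the difference of 0.98 ± 0.18 did not pass (adjusted p = 0.521). The placebo count for regulators was 10 without rapamycin animal 3, and the rapamycin count was 1 with normal liver 1 left out.

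Cell type markers moved with these groups. For the counts that follow, 4.93%, 5.38% and 12.5% of all genes were called lower in rapamycin foci, placebo foci and AAF/PH liver. The shares called higher were 1.6%, 2.84% and 7.54%. The summed intensity of 12 hepatocyte markers was 31798 to 47149 in rapamycin foci, 34368 to 41527 in placebo foci, 26244 to 30574 in AAF/PH liver and 50668 to 55332 in normal liver, and 1, 6 and 9 of the 12 were lower in the treated groups in that order. For 13 biliary and oval cell markers the sums were 356 to 579, 568 to 819.9, 950.5 to 1591 and 266 to 302, with 2, 4 and 11 higher and 0 lower. Sums of 12 stellate cell and matrix markers were 677 to 995, 908 to 1268, 1933 to 4941 and 782 to 1047, with 0, 1 and 7 higher. No marker was at 0 in any group, which array intensities do not reach and which therefore says nothing of the cells present. In captured tissue, fewer cells of a type and less RNA per cell cannot be told apart, and the part of these markers in the results was not tested. Of 10 pericentral genes, 4 were lower and 1 higher in each kind of foci, and 2 and 2 in AAF/PH liver. Their median log2 differences were -0.37 in rapamycin foci, -0.41 in placebo foci and 0.01 in AAF/PH liver. Over all genes the medians were 0.07, 0.04 and 0.12. The list thus had genes in both directions, and the pericentral transporter Rhbg was higher in all 3 treated groups. Notum, Lect2 and Cyp2e1, all pericentral like Oat, were lower in rapamycin foci (-1.34, -1.65 and -1.41, adjusted p = 0.000553, 0.0017 and 0.00461) and in placebo foci (-1.43, -1.78 and -1.57, adjusted p = 0.000139, 0.000418 and 0.00101). In AAF/PH liver, Notum and Lect2 were lower too (-1.87 and -1.45, adjusted p = 5.29e-06 and 0.000906), and Cyp2e1 differed by -0.38 (adjusted p = 0.282). With normal liver 1 left out, the pericentral count of 5 in rapamycin foci became 3. Of 8 periportal genes outside the members, 1 was lower in rapamycin foci and 4 each in placebo foci and AAF/PH liver, with 0 higher. The rapamycin count was 2 on leaving out normal liver 2 or rapamycin animal 1 or 2, the placebo count 2 on leaving out normal liver 3, and the AAF/PH count 2 on leaving out normal liver 1 or AAF/PH animal 1. Of 10 macrophage markers, 4, 2 and 2 were lower in rapamycin foci, placebo foci and AAF/PH liver, and 0, 0 and 1 higher. Red cell markers (4) gave 2, 2 and 3 lower and 0 higher. Endothelial markers (6) gave 1 lower in each group and 0 higher. Lymphocyte markers (8) gave 1, 0 and 1 higher and 0 lower.

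Whether an effect of rapamycin outlasted the pellet is addressed by setting both kinds of foci against each other. No member passed, and limma called 0% of all 14497 genes, with 483 genes and 1 member at an unadjusted p under 0.05. That member was Oat, at 73.8, 86.1 and 65.2 with rapamycin and 34.0, 57.4 and 47.2 with placebo. Every rapamycin value exceeded every placebo value, a separation seen in 3.62% of all genes in the higher direction, 2.41% in the lower and 6.04% in either. The log2 difference was 0.72 ± 0.28 (95% interval 0.12 to 1.32, adjusted p = 0.985, higher in 3 of 3 animals). For the other 7 genes the difference ran between -0.15 for Otc (95% interval -1.04 to 0.75) and 0.26 for Nags (-0.18 to 0.70). These intervals leave room for changes in either direction, so the groups are not shown to be alike. Rapamycin animals 1 and 2 lay above all placebo animals for Otc, Cps1, Ass1, Asl, Arg1, Nags and Oat, and animal 3 below all of them for Otc, Cps1, Ass1, Asl, Arg1 and Gls2. Without animal 3 all 8 differences were positive, between 0.30 for Asl and 0.82 for Oat. Of these, 6 had an unadjusted p under 0.05 and 0 passed after adjustment (lowest adjusted p = 0.485, for Ass1), while 0.0207% of all genes were called.

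**Figure D5:**
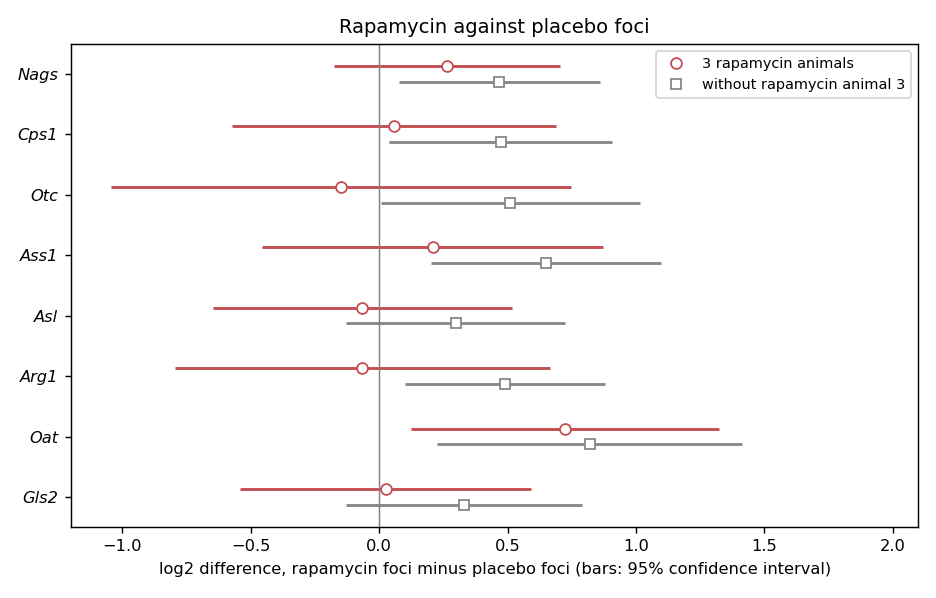
Log2 difference of rapamycin minus placebo foci for the 8 genes with 95% confidence intervals, with all 3 rapamycin animals (circles) and without rapamycin animal 3 (squares). Only the interval of Oat, 0.12 to 1.32, leaves out 0 with all animals, and all squares lie right of 0.

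Likeness of pattern was read over the 12 animals. Among the 5 genes of the cycle proper, Cps1, Ass1, Asl and Arg1 correlated with one another at 0.70 to 0.92. Otc departed from them, at -0.21 with Cps1, 0.16 with Ass1, -0.54 with Asl and -0.08 with Arg1. The low Otc of AAF/PH liver, not shown to be above background, weighs on the mean of all 5. That mean, of Otc, Cps1, Ass1, Asl and Arg1, was followed most closely by Clk4, a splicing kinase, Cyp2a1, a cytochrome P450, F13b, a clotting factor subunit, Ccdc47 and Tle1, a transcriptional corepressor (Pearson r 0.97 to 0.98). Oat was followed most closely by Cyp1a2, a pericentral cytochrome P450, Hsd17b6 and Slc43a3 (r 0.99, 0.97 and 0.97). Cyp1a2 averaged 112 in rapamycin foci, 81.1 in placebo foci, 171 in AAF/PH liver and 467 in normal liver, the same order of groups as Oat. For Gls2 the closest were Lrp3, Tmprss6, a liver protease of iron control, and Tmem53 (r 0.99, 0.99 and 0.98). The points share arrays and group differences, so these values describe likeness of pattern only.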

How the data were processed

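Per the submitters' processing notes, Partek 6.6 and RMA (background correction, normalization and summary of probes) were used, and the labels give no settings. The authors' deposited values were intensities on a linear scale for 28826 probe sets on 14 arrays. Log2 was taken here with no pseudocount. Of the probe sets, 15209 carried 1 symbol, 306 several and 13311 none. The probe set of highest mean was taken per gene, which left 14497 genes. The number of arrays limits the precision. Replicate numbers in the labels name samples, and each number within a group was taken as 1 animal. Where animals were not stated to be separate, p-values measure only the spread between samples.

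Tests used limma 3.58.1 in R 4.3.3 (2-sided), in 1 fit of 12 animals (degrees of freedom: residual 8, prior 6.38). Benjamini-Hochberg adjustment ran over all genes, with calls under 0.05. Errors are standard errors of the fit. The calculation was tested on simulated data. There were 25 alternatives for each of 6 contrasts.

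Named genes are the 8 members, the 4 of smallest p per list and contrast (some are not printed), Glud1, Rhbg, Slc25a15 and Car5a, and for likeness the genes of highest r. Members and lists were chosen with earlier results of these data known. Glul and Slc25a13 are not analysed here.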

Additional observations from a re-analysis of the deposited data

How the results depend on the processing

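The 8 genes' calls depended on the analysis most where the adjusted p lay near 0.05. Nags and Oat against normal liver in all 3 treated groups, Gls2 in placebo foci and AAF/PH liver, Otc in AAF/PH liver, and Otc and Asl in rapamycin and placebo foci set against AAF/PH liver were called in all 25 alternatives. The number called in placebo foci against normal liver was 3 with arrays centred on their medians, with 16 added before log2 and with a trend and robust prior, and 3 to 8 on leaving out 1 animal. In rapamycin foci against normal liver it was 2 with only these 2 groups in the fit and 2 to 7 on leaving out 1 animal. For placebo foci against AAF/PH liver it was 7 with quantile normalization, with only these 2 groups and with array weights, and 2 to 7 on leaving out 1 animal. On leaving out 1 animal the range was 4 to 6 for AAF/PH against normal liver and 2 to 3 for rapamycin foci against AAF/PH liver. The cause was not tested.

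Signs turned for some differences that had not passed the threshold. Against normal liver these were Arg1 in rapamycin foci (-0.880 without rapamycin animal 2 to 0.000431 without rapamycin animal 3), Arg1 (-0.056) and Cps1 (-0.108) under centring in AAF/PH liver, Cps1 there on leaving out normal liver 2 (-0.081, or 0.198 on leaving out normal liver 1), and Glud1 there under quantile normalization (0.000377). Between rapamycin and placebo foci, quantile normalization gave 0.081 for Arg1 and 0.029 for Asl, the second capture alone 0.065 for Arg1, array weights 0.405 for Arg1, 0.311 for Asl and 0.493 for Otc, centring -0.00746 for Cps1 and -0.040 for Gls2, and the first array alone -0.00361 for Cps1. On leaving out 1 animal, the difference ran between -0.390 and 0.491 for Arg1, -0.309 and 0.298 for Asl, -0.0935 and 0.651 for Ass1, -0.265 and 0.474 for Cps1, -0.221 and 0.331 for Gls2, and -0.512 and 0.511 for Otc, with the lowest value without rapamycin animal 2 and the highest without rapamycin animal 3 in each. Signs also turned without rapamycin animal 1 or placebo animal 2 for Cps1 (-0.0371 and -0.0584) and Gls2 (-0.0347 and -0.0523), and without placebo animal 3 for Otc (0.031).

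The replicate block, which takes the number in the labels as a pairing, left 3 genes called in rapamycin foci, 4 in placebo foci and 4 in AAF/PH liver relative to normal liver. It left 2 in rapamycin foci and 3 in placebo foci relative to AAF/PH liver, and 0 between the foci. Same-numbered animals deviated together (r above 0.1) in 7 of 18 pairs, and in 0 of 6 comparisons did every sample correlate best with its own number. Alternatives for the gaps were added after seeing the data. Over 25 of them, the Otc and Cps1 gap in AAF/PH liver had shifted by -5.20 to -4.05, and the Oat and Cps1 gap by -1.64 to -1.10 in rapamycin foci, -2.27 to -1.61 in placebo foci and -1.98 to -1.36 in AAF/PH liver.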
